A study of Homo sapiens with 8 samples.

Results

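The regions described here are the 594 distinct p63 regions on human chromosome 4, out of 15267 distinct regions in all, that were listed in SCC13 or CAL27 cells. They were taken as every listed region whose chromosome was 4, in hg19 coordinates. Chromosome 4 was selected on its share of the listed regions, which had already been seen to differ between the lines, so that share and what follows from it are given as a description with no test. In SCC13 the chromosome held 300 of 5886 regions, or 5.10% (95% exact binomial interval 4.55 to 5.69), and in CAL27 494 of 13829, or 3.57% (3.27 to 3.90). SCC13 and CAL27 are established human squamous cell carcinoma lines, SCC13 from skin and CAL27 from tongue. Both were labelled wild type and untreated. SCC13 was grown in serum-free keratinocyte medium with pituitary extract, EGF and calcium, and CAL27 in a serum-containing medium, so line and medium cannot be told apart. The 8 samples formed 4 groups of 2, namely p63 immunoprecipitation in SCC13 and in CAL27, and samples titled none in each line. Each line had 1 deposited list that its 2 immunoprecipitation samples were labelled with, so no spread between replicates could be computed, and the depth of the libraries is unknown.

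p63 is the transcription factor encoded by TP63, a member of the p53 family. It marks the basal layer of stratified epithelia, where it maintains proliferative keratinocytes, and it is retained in most squamous carcinomas. It binds DNA as a tetramer, mostly at enhancers far from promoters, and a region in a list is a stretch in which immunoprecipitated fragments were called as enriched. Such regions carry no score here. A region that is missing from a list is therefore not shown to be unbound in that line.

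The members fell into 3 classes. On chromosome 4, 200 regions were shared, 100 were listed in SCC13 only and 294 in CAL27 only. Shared regions overlapped by at least 1 bp, and every one of them had the same start and end in both lists. Shared regions made up 33.7% of the members (95% exact binomial interval 29.9 to 37.6), SCC13-only regions 16.8% (13.9 to 20.1) and CAL27-only regions 49.5% (45.4 to 53.6). These intervals cover counting error only. Among regions at least as wide as the median of their list, SCC13-only regions made up 7.18% of the members, and chromosome 4 held 3.36% of the SCC13 and 2.43% of the CAL27 regions. The class percentages of such wide regions were not computed for the other chromosomes. With regions of all widths, the other 22 chromosomes had 29.0% shared, 9.12% SCC13-only and 61.9% CAL27-only regions. Of the 23 chromosomes, chromosome 4 had the highest percentage of shared regions, the highest of SCC13-only regions and the lowest of CAL27-only regions. Other chromosomes came near, with intervals that overlapped those of chromosome 4. SCC13-only regions made up 15.6% on chromosome 8 (13.0 to 18.6) and 15.5% on X (11.8 to 19.9). CAL27-only regions made up 52.6% on chromosome 8 (48.8 to 56.5), and shared regions 32.6% on chromosome 19 (28.1 to 37.4). The 2.94 CAL27-only regions per SCC13-only region on chromosome 4 were the fewest of any chromosome. The ratio was 3.37 on chromosome 8 and 6.79 over the others pooled. Seen from each list, 66.7% of the SCC13 regions on chromosome 4 were shared (61.0 to 72.0) and 40.5% of the CAL27 regions (36.1 to 45.0). Over the other chromosomes pooled the percentages were 76.0% and 31.9%. Of the 23 chromosomes, chromosome 4 was thus second lowest from the SCC13 list and highest from the CAL27 list.

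The density of each class was also read per Mb of chromosome. SCC13-only regions lay at 0.523 per Mb on chromosome 4 and at 0.470 per Mb over the other chromosomes. That density was the ninth highest of 23, and single other chromosomes ran from 0.253 to 0.746 per Mb. CAL27-only regions lay at 1.54 per Mb on chromosome 4 and at 3.19 per Mb elsewhere. On X alone was the CAL27-only density lower, at 1.22 per Mb. Shared regions lay at 1.05 per Mb on chromosome 4 and at 1.49 per Mb elsewhere, the fourth lowest density of 23. The density of each class thus lay inside the range of the other chromosomes. That range was 1.22 to 4.98 per Mb for CAL27-only and 0.567 to 2.25 per Mb for shared regions. Which class sets the split apart was not tested. On its length of 191 Mb, chromosome 4 had 3.11 regions per Mb over all classes, the second lowest of 23. It held 6.95% of all SCC13-only regions (5.69 to 8.39), 4.50% of all shared regions (3.91 to 5.15) and 3.13% of all CAL27-only regions (2.79 to 3.51). Of its line-only regions, 25.4% were SCC13-only (21.2 to 30.0), against 22.9% on chromosome 8 (19.1 to 27.1), the nearest of the others.

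**Figure D1:**
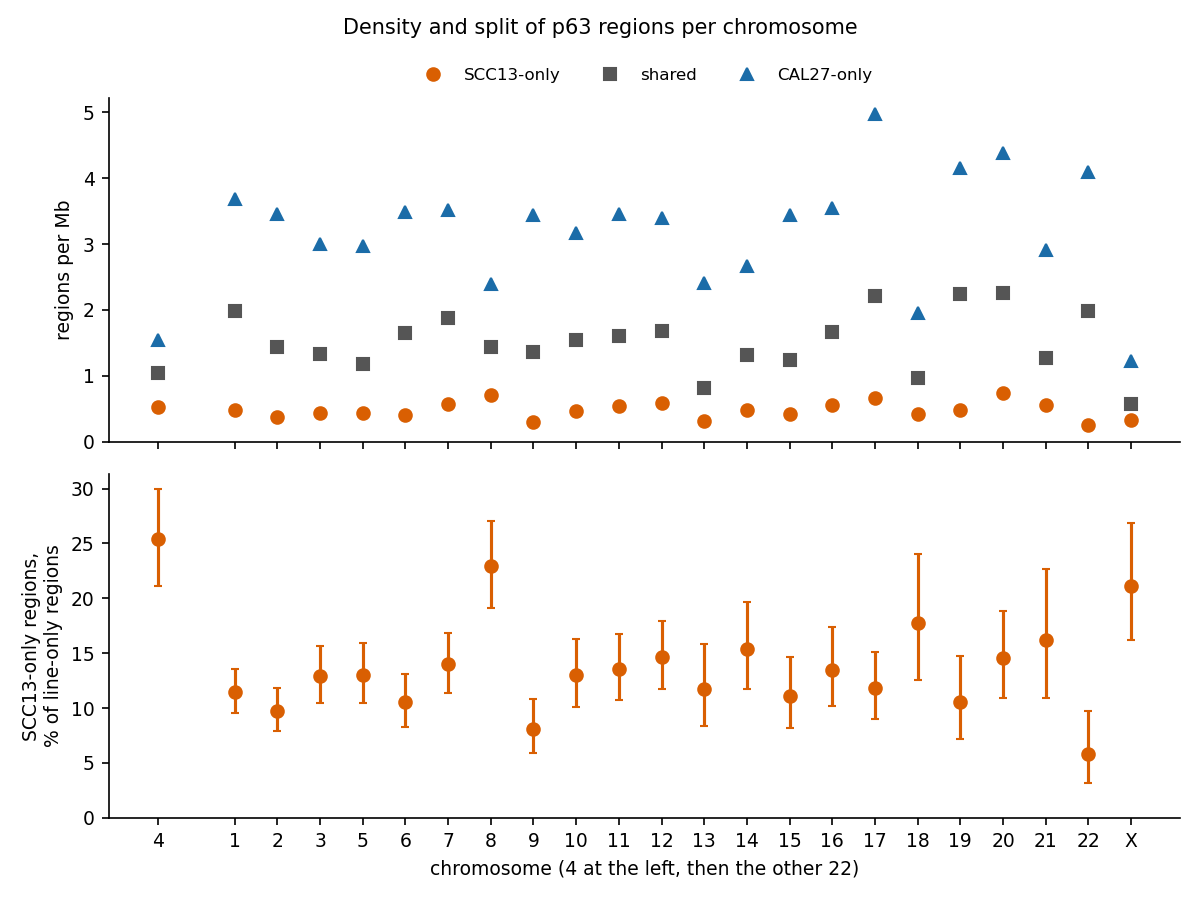
The upper panel plots regions per Mb of each class for chromosome 4 and the other 22 chromosomes; the lower panel plots SCC13-only regions as a percentage of all line-only regions, with exact 95% binomial intervals for counting error. Chromosome 4 has 0.523 SCC13-only and 1.54 CAL27-only regions per Mb, and 25.4% of its line-only regions are SCC13-only.

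Both arms of chromosome 4 had nearly the same mixture. The short arm held 178 regions on 50.4 Mb, of which 60 were shared, 31 SCC13-only and 87 CAL27-only. The long arm held 416 regions on 141 Mb, of which 140 were shared, 69 SCC13-only and 207 CAL27-only. Shared regions were 33.7% of either arm. SCC13-only regions were 17.4% of the short arm (12.2 to 23.8) and 16.6% of the long arm (13.1 to 20.5). CAL27-only regions were 48.9% of the short arm (41.3 to 56.5) and 49.8% of the long arm (44.9 to 54.7). The regions were somewhat denser on the short arm, at 3.53 per Mb, than on the long arm, at 2.96 per Mb.

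In the 39 bins of 5 Mb, no stretch of chromosome 4 carried the SCC13-only regions by itself. SCC13-only regions occurred in all bins but 6, and never numbered more than 6 in a bin, a count reached at 10 to 15, 40 to 45, 75 to 80 and 90 to 95 Mb. They were outnumbered by CAL27-only regions in 33 bins, equalled them in 3 and outnumbered them in 2, and the last bin had neither. Shared regions outnumbered CAL27-only regions in 7 of the 39 bins, or 17.9%, against 4.98% of the 582 bins on the other chromosomes. The 7 include the last, incomplete bin. This percentage depends on the mixture of classes, on which the chromosome was in effect chosen, so nothing is read from it. The median bin of chromosome 4 held 5 shared, 2 SCC13-only and 7 CAL27-only regions, and the median bin elsewhere held 6, 2 and 15. No tested bin differed from the rest of the chromosome after adjustment, so the counts of bins that follow are given as a description. The 20 to 25 Mb and 130 to 135 Mb bins held too few line-only regions for a test of their split. The last bin held too few regions for any test.

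**Figure D2:**
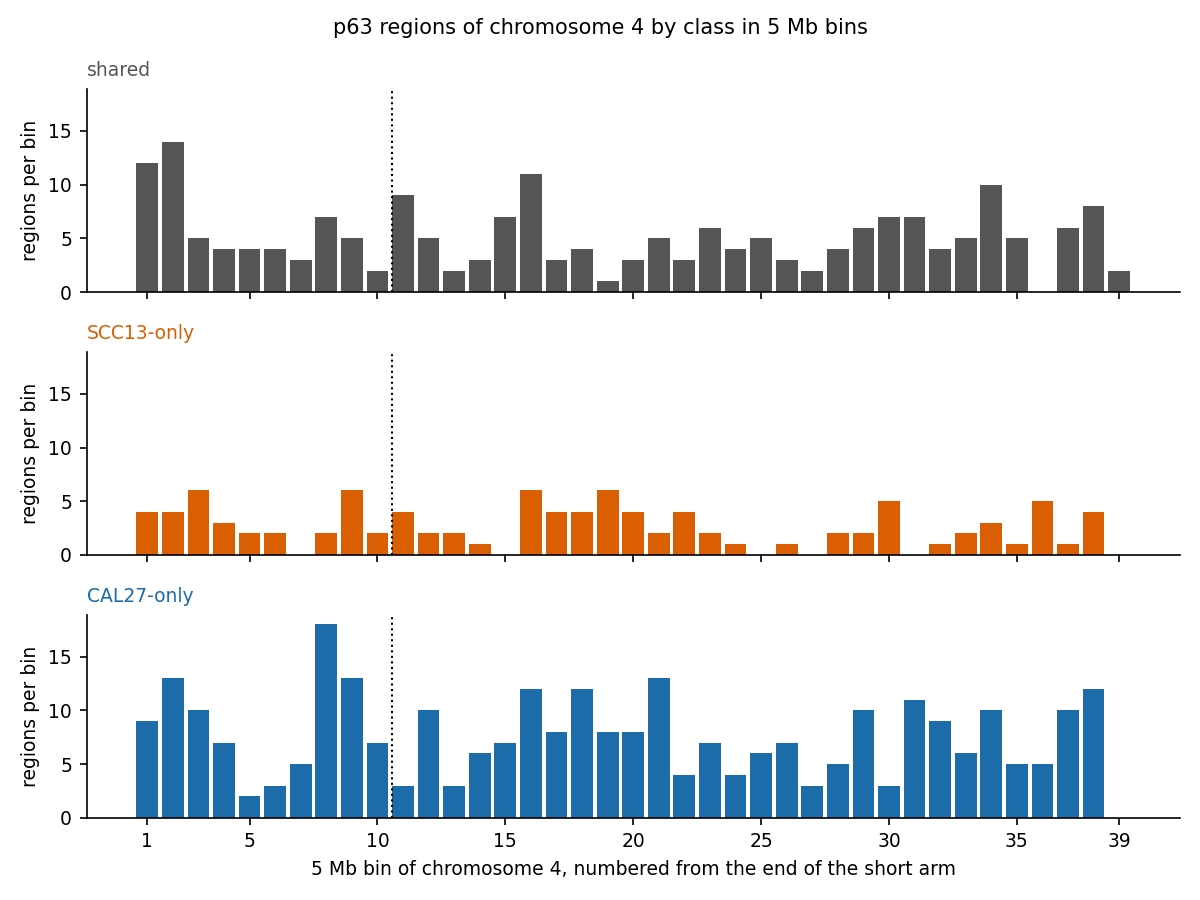
Numbers of shared, SCC13-only and CAL27-only p63 regions in each of the 39 bins of 5 Mb on chromosome 4, numbered from the end of the short arm; the dotted line marks the border of the arms, and the last bin is incomplete. SCC13-only regions stay at 6 or fewer in each bin, while CAL27-only regions reach 18 in bin 8.

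The tip of the short arm was the richest part in shared regions. The 0 to 5 Mb bin held 12 shared, 4 SCC13-only and 9 CAL27-only regions. Next to it, the 5 to 10 Mb bin held 14, 4 and 13 in the same order, and its 31 regions were the most of any bin. Bands 4p16.3 and 4p16.1 lie here; the first is the band of FGFR3, a fibroblast growth factor receptor gene. From 10 to 15 Mb there were 5 shared, 6 SCC13-only and 10 CAL27-only regions, so that SCC13-only regions outnumbered shared ones. The 15 to 20 Mb bin had 4, 3 and 7.

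Counts were low across the middle of the short arm. The 20 to 25 Mb bin held 4 shared, 2 SCC13-only and 2 CAL27-only regions, and the 25 to 30 Mb bin 4, 2 and 3. In both, shared regions outnumbered those of either line. The 30 to 35 Mb bin held 3 shared, no SCC13-only and 5 CAL27-only regions. CAL27-only regions then reached their peak of the whole chromosome, with 18 in the 35 to 40 Mb bin beside 7 shared and 2 SCC13-only. The 40 to 45 Mb bin held 5 shared, 6 SCC13-only and 13 CAL27-only regions, and the 45 to 50 Mb bin 2, 2 and 7. Of these last 11 regions, 10 lay in band 4p11, the short-arm side of the centromere.

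Shared regions were in the majority just past the centromere. The 50 to 55 Mb bin, at the start of band 4q12, held 9 shared, 4 SCC13-only and 3 CAL27-only regions. It was 1 of 2 bins in which shared regions were the majority, the other being the last bin with its 2 regions. Band 4q12 is that of the receptor tyrosine kinase genes PDGFRA and KIT. The 55 to 60 Mb bin held 5, 2 and 10, the 60 to 65 Mb bin 2, 2 and 3, and the 65 to 70 Mb bin 3, 1 and 6. The 70 to 75 Mb bin held 7 shared and 7 CAL27-only regions and no SCC13-only region. Next came 1 of the fullest bins of the long arm, 75 to 80 Mb, with 11 shared, 6 SCC13-only and 12 CAL27-only regions.

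Between 80 and 110 Mb each bin held 1 to 5 shared and 2 to 6 SCC13-only regions. The 80 to 85 Mb bin held 3 shared, 4 SCC13-only and 8 CAL27-only regions. It was followed by bins of 4, 4 and 12 at 85 to 90 Mb, of 1, 6 and 8 at 90 to 95 Mb and of 3, 4 and 8 at 95 to 100 Mb. SCC13-only regions matched or outnumbered shared ones in each of these 4 bins. The 100 to 105 Mb bin held 5, 2 and 13, and the 105 to 110 Mb bin 3, 4 and 4.

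From 110 to 145 Mb no bin held more than 2 SCC13-only regions. The 110 to 115 Mb bin held 6 shared, 2 SCC13-only and 7 CAL27-only regions, and the 115 to 120 Mb bin 4, 1 and 4. Band 4q25, which is that of EGF and of the Wnt effector gene LEF1, held 6 shared, 4 SCC13-only and 8 CAL27-only regions in all. The 120 to 125 Mb bin held 5, 0 and 6, the 125 to 130 Mb bin 3, 1 and 7, and the 130 to 135 Mb bin 2, 0 and 3. The longest stretch without an SCC13-only region ran here for 12.9 Mb, from 115271365 to 128182528, and contained 24 regions of the other classes. The 135 to 140 Mb bin held 4, 2 and 5 and the 140 to 145 Mb bin 6, 2 and 10.

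Neighbouring bins at 145 to 155 Mb held different mixtures of line-only regions. The 145 to 150 Mb bin held 7 shared, 5 SCC13-only and 3 CAL27-only regions. The 150 to 155 Mb bin held 7 shared, no SCC13-only and 11 CAL27-only regions. Band 4q31.3, that of FBXW7, a ubiquitin ligase gene, held 7 shared and 9 CAL27-only regions and none listed in SCC13 only.

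Toward the end of the long arm most bins held more CAL27-only than SCC13-only regions. The 155 to 160 Mb bin held 4 shared, 1 SCC13-only and 9 CAL27-only regions, and the 160 to 165 Mb bin 5, 2 and 6. The 165 to 170 Mb bin held 10, 3 and 10, and the 170 to 175 Mb bin 5, 1 and 5. The 175 to 180 Mb bin was the single one without a shared region, and held 5 SCC13-only and 5 CAL27-only regions. After it came 6, 1 and 10 at 180 to 185 Mb, and 8, 4 and 12 at 185 to 190 Mb. Beyond 190 Mb the list had 2 regions, both shared, the last of them at chr4:190049325-190050140. The other end of the chromosome began with a CAL27-only region at chr4:906333-907152.

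None of the tested bins differed from the rest of chromosome 4 beyond the adjustment for multiple tests. The split of SCC13-only and CAL27-only regions in each bin was set against that on the rest of its own chromosome, which does not use the whole-chromosome share, with a two-sided Fisher's exact test adjusted after Benjamini and Hochberg over all 548 bins of the genome that held at least 5 line-only regions. Of the 36 bins of chromosome 4 tested, 0 passed, and of all bins 0% passed. At an unadjusted p under 0.05 there was 1 bin of chromosome 4, or 2.78%, and 46 bins in all, or 8.39%. That 1 bin was 145 to 150 Mb, with 5 SCC13-only and 3 CAL27-only regions (exact p = 0.0277, adjusted p = 0.511). The 150 to 155 Mb bin, with 0 and 11, had an exact p of 0.0728 (adjusted p = 0.584).

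The same test of shared against line-only regions, over 569 bins with at least 5 regions, also gave 0 of 38 bins on chromosome 4, with 0% passing genome-wide. Unadjusted, 2 bins of chromosome 4 were under 0.05, or 5.26%, against 22 of all bins, or 3.87%. They were the 175 to 180 Mb bin, with 0 shared of 10 regions (exact p = 0.0193, adjusted p = 0.852), and the 90 to 95 Mb bin, with 1 shared of 15 (exact p = 0.0256, adjusted p = 0.955). Regions were treated as independent, and bins of chromosome 4 held 5 to 20 line-only regions in the first test, so modest differences between bins were not detectable.

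Across the 39 bins, shared and CAL27-only counts were only loosely related, with a Pearson's r of 0.47 and a Spearman's rho of 0.50. On the other chromosomes r ran from 0.43 to 0.97, with a median of 0.77. For shared and SCC13-only counts r was 0.21 and rho 0.16, and for SCC13-only and CAL27-only counts r was 0.29 and rho 0.31. The median r of the other chromosomes was 0.235 and 0.239 for these pairs. Chromosome 4 ranked 11 and 13 from the lowest of 23, so neither value is particular to it. These values describe bins of 1 chromosome that come from the same lists, and they have no test.

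By cytogenetic band, the regions were densest in pale Giemsa bands, which are rich in genes. Band 4q21.3 had 8.18 regions per Mb, 4p14 had 7.59, 4p16.1 had 7.17 and 4q21.1 had 6.54. Band 4p14 held 11 shared, 5 SCC13-only and 25 CAL27-only regions. In 4q21.1 the classes were nearly even, with 5 shared, 6 SCC13-only and 6 CAL27-only regions. Band 4q13.3, which carries the EGF receptor ligand genes EREG and AREG and the chemokine gene CXCL8, held 12 shared and 11 CAL27-only regions and no SCC13-only region. Single pale bands were also sparse, with 1.30 regions per Mb in 4q28.2 and 0.278 in 4p12, which had 1 region, CAL27-only. The centromeric band 4q11 had none, but whether fragments can be mapped there in hg19 was not examined.

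Pale bands held 52.0% of shared (44.8 to 59.1), 56.0% of SCC13-only (45.7 to 65.9) and 52.4% of CAL27-only regions (46.5 to 58.2), and made up 40.3% of the chromosome. The darkest, gene-poor bands, which make up 21.5% of the chromosome, held 15.5% of shared (10.8 to 21.3), 13.0% of SCC13-only (7.11 to 21.2) and 13.9% of CAL27-only regions (10.2 to 18.4). All 3 intervals overlapped. On the other chromosomes pale bands made up 42.6% of the length and held 58.4% of shared, 50.7% of SCC13-only and 56.9% of CAL27-only regions. The darkest bands there made up 16.1% of the length and held 7.56% of shared, 14.1% of SCC13-only and 8.79% of CAL27-only regions. More regions in pale bands than their length gives were thus found on the other chromosomes too. Whether chromosome 4 differs from the others in either kind of band was not tested.

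**Figure D3:**
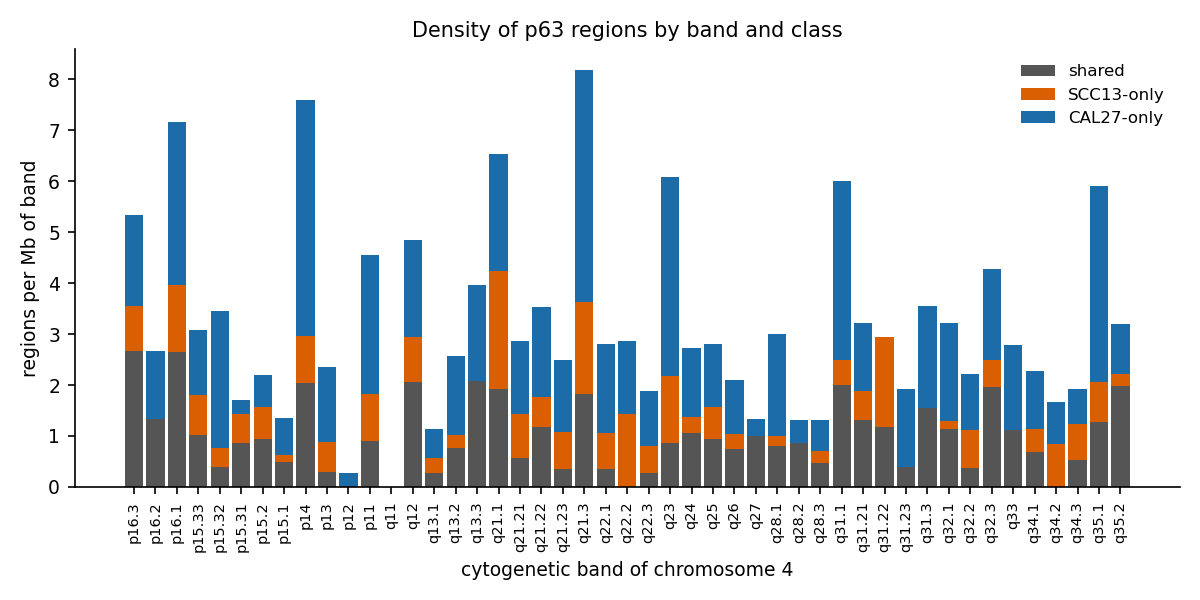
Regions per Mb in each cytogenetic band of chromosome 4, from the tip of the short arm to the tip of the long arm, stacked by class. Bands 4p16.1, 4p14, 4q21.1 and 4q21.3 exceed 6.5 regions per Mb, 4q11 is empty, and 4q13.3 and 4q31.3 are among 8 occupied bands without an SCC13-only region.

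Regions of chromosome 4 were narrow, and shared regions were the widest class. The median width was 805 bp for shared regions (95% interval 762 to 862), 534 bp for SCC13-only regions (486 to 604) and 612.5 bp for CAL27-only regions (590 to 637). On the other chromosomes the medians were 941, 595 and 727 bp. For each class the median on chromosome 4 was the second lowest of 23 chromosomes. Within chromosome 4, SCC13-only regions had a median of 664 bp on the short arm (465 to 745) and 515 bp on the long arm (465 to 556), and the intervals overlapped.

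The class of a region followed its width. Of the 120 members under 500 bp, 4 were shared, 43 SCC13-only and 73 CAL27-only. From 500 to below 750 bp, 30.3% of 261 regions were shared (24.8 to 36.2), and from 750 to below 1000 bp 48.5% of 132 (39.7 to 57.3). From 1000 to below 1500 bp 64.8% of 71 were shared (52.5 to 75.8). Elsewhere these 3 steps had 19.5%, 34.6% and 43.7% shared regions. In the same 3 steps SCC13-only regions made up 14.2%, 10.6% and 8.45% on chromosome 4, against 9.14%, 6.89% and 4.16% elsewhere. Below 500 bp they made up 35.8% on chromosome 4 and 26.5% elsewhere. At 1500 bp or more they made up 0% and 1.82%. The SCC13-only intervals overlapped in every step but 500 to below 750 bp. Widths within a step were not equalised, and regions of each class were narrower on chromosome 4, so these values are a description. Below 500 bp the shared percentages were 3.33% on chromosome 4 (0.916 to 8.31) and 3.70% elsewhere. The CAL27-only percentage from 1000 to below 1500 bp was 26.8% on chromosome 4 (16.9 to 38.6) and 52.1% elsewhere (50.3 to 53.9). Under 500 bp it was 60.8% on chromosome 4 (51.5 to 69.6) and 69.8% elsewhere (67.6 to 72.0), with overlapping intervals. Of the 10 regions of 1500 bp or more, 7 were shared, 0 SCC13-only and 3 CAL27-only, too few for a comparison.

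**Figure D4:**
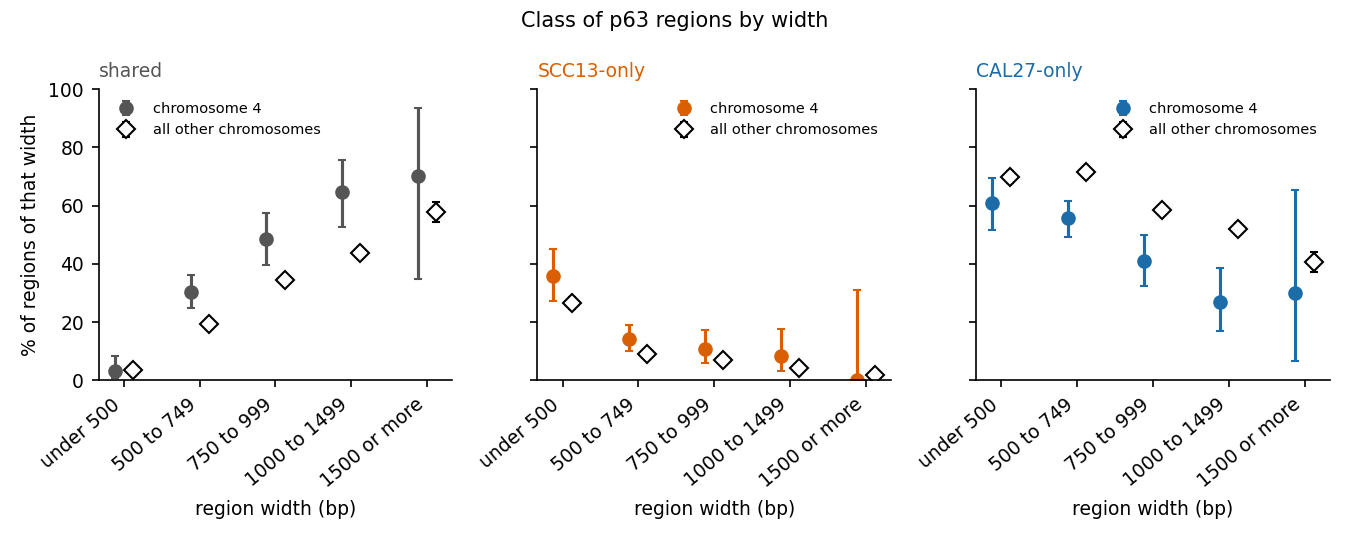
Percentage of regions in each class for 5 steps of width, on chromosome 4 (filled circles) and on all other chromosomes (open diamonds), with exact 95% binomial intervals for counting error. Between 500 and 1500 bp the shared percentage on chromosome 4 is 30.3%, 48.5% and 64.8%, against 19.5%, 34.6% and 43.7% elsewhere.

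The widest single members were in different places for each class. The widest shared region, of 2073 bp, lay at chr4:187840451-187842523 in band 4q35.2, the band of the atypical cadherin gene FAT1. It was followed by regions of 1984 bp at chr4:22484811-22486794 and of 1861 bp at chr4:26780693-26782553, both in 4p15.2, of 1828 bp at chr4:38674741-38676568 in 4p14, and of 1707 bp at chr4:3387082-3388788 in 4p16.3. The widest SCC13-only regions, of 1491 bp at chr4:177936733-177938223 and 1125 bp at chr4:179586697-179587821, both lay in the dark band 4q34.3, in the 175 to 180 Mb bin that had no shared region. Next were 1123 bp at chr4:103489739-103490861 in 4q24, 1033 bp at chr4:10284840-10285872 in 4p16.1 and 1026 bp at chr4:41935575-41936600 in 4p13. The widest CAL27-only region was wider than any shared or SCC13-only one, with 2417 bp at chr4:40057425-40059841 in 4p14. The others among the widest CAL27-only regions had 1959 bp at chr4:1784681-1786639 in 4p16.3, 1701 bp at chr4:129208578-129210278 in 4q28.2, 1427 bp at chr4:140088320-140089746 in 4q31.1 and 1382 bp at chr4:170105390-170106771 in 4q33. Genes at single regions were not assigned here.

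Taken over all classes, members lay far apart. The median step from one midpoint to the next was 167 kb, the second longest of 23 chromosomes after X, and 7.25% of the steps were within about 13 kb (a limit set midway between 12 and 13 kb), the lowest percentage of any chromosome. The median SCC13-only region was 276 kb from the nearest shared region, 196 kb from the nearest CAL27-only region and 405 kb from the nearest other SCC13-only region. Counted from the shortest of 23 chromosomes, these distances ranked 18, 22 and 7. The median CAL27-only region was 261 kb from a shared, 549 kb from an SCC13-only and 167 kb from another CAL27-only region, with ranks of 22, 7 and 23. Distances to an SCC13-only region were therefore not among the longest. Of the 100 SCC13-only regions, 4 lay within about 13 kb of a shared region and 6 within that distance of a CAL27-only region. For shared regions the percentage was 5.50% to another shared, 5.50% to a CAL27-only and 2.00% to an SCC13-only region. For CAL27-only regions it was 3.74% to a shared, 2.04% to an SCC13-only and 9.18% to another CAL27-only region. A step leads to the next region of any class, so the percentage of steps is not comparable with these.

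Groups of at least 3 regions, joined where midpoints followed within the same distance, numbered 5, with 15 regions or 2.53% of the members. The percentage was 7.63% over the other chromosomes pooled, but 2.74% on X and 2.93% on chromosome 13. None of the 5 groups held more than 3 regions. The number of groups depended on the joining distance, with 1 at 5 kb and 13 at 25 kb. The tightest consisted of 3 shared regions within 6.45 kb in band 4q13.3, at chr4:75275837-75276538, chr4:75279086-75279889 and chr4:75281254-75282284. In band 4q12, a CAL27-only region at chr4:54773897-54774418, an SCC13-only region at chr4:54780598-54781421 and a shared region at chr4:54783747-54784886 lay within 11.0 kb. The group in 4q32.3, at chr4:169724473-169738494, held 1 CAL27-only and 2 shared regions. In 4p14, 3 CAL27-only regions of 872 to 1029 bp lay at chr4:37668093-37688792. The fifth group, at chr4:48951500-48970135 in the centromeric band 4p11, held 1 region of each class.

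In order along the chromosome, the 594 members formed 346 runs of 1 class, and 41.8% of regions were followed by one of their own class, against 41.7% on chromosome 8 and 46.6 to 55.9% on the others. This percentage and the length of runs depend on the mixture of classes, on which the chromosome was in effect chosen, so nothing is read from them. The longest SCC13-only run held 4 regions within 0.143 Mb in 4q21.1, at chr4:78122525-78122835, chr4:78150415-78150952, chr4:78254017-78254509 and chr4:78264799-78265693, of 311, 538, 493 and 895 bp. The longest CAL27-only runs held 7 regions each, over 1.39 Mb from 38796617 to 40188712 in 4p14 and over 1.53 Mb from 87762263 to 89295035 in 4q21.3 and 4q22.1. On the other chromosomes the longest CAL27-only run held 8 to 25 regions. The longest shared runs held 5 regions each, over 0.523 Mb from 3011400 to 3533921 in 4p16.3 and over 0.758 Mb from 53703476 to 54461906 in 4q12. All 5 regions of the 4p16.3 run were 1006 bp or wider. After an SCC13-only region, 25 of 100 next regions were SCC13-only, after a shared region 16.1% and after a CAL27-only region 14.6%.

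The longest stretch with no member of any class, 3.95 Mb from 48970136 to 52917545, ran from within the centromeric band 4p11 through 4q11 into 4q12. How much of this stretch fragments can be mapped to in hg19 was not examined. Its lack of regions is therefore not read as a lack of binding. The next such stretch ran for 3.27 Mb from 44267227 to 47533637 in 4p13 and 4p12. Another ran for 3.10 Mb from 57978774 to 61082547 in 4q12 and 4q13.1, bounded by an SCC13-only region on both sides. On the short-arm side of the centromere, 10 regions lay in band 4p11 between 48339554 and 48970135, 2 of them shared, 2 SCC13-only and 6 CAL27-only.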

How the data were processed

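Cells were crosslinked with 1% formaldehyde for 10 min and 10 ug of p63 antibody was used, per the labels' protocols. Bowtie2, SAMtools 1.8, MACS2 and hg19 appear in the submitters' processing notes, without roles or order. For each line the authors deposited a list with 3 columns (chromosome, start, end) and no score. Not stated are how peaks were thresholded, what the samples titled none were used for, and how replicates were merged. Printed positions count from 1.

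Regions were shared where at least 1 bp overlapped, and were binned by midpoint. Each bin was set against the rest of its chromosome by Fisher's exact test (two-sided), adjusted after Benjamini and Hochberg at 0.05 over every tested bin. Percentages carry exact Clopper-Pearson intervals and medians exact order-statistic intervals, both at 95% and with regions taken as independent. Lengths and bands of hg19 came from the R package circlize 0.4.16 (R 4.3.3). Genes named for a band are background, with their chromosome looked up in RefSeq's GRCh38 table. Sequence content had been planned and was not analysed here. Named were the 5 widest regions per class, the fullest bins, every group of 3 or more, the longest runs and gaps, and both ends. Members, lists and rules were chosen with earlier results of these data known. The work was done in Python 3.11.15 (numpy 2.4.6; scipy 1.17.1; pandas 2.3.3; matplotlib 3.10.9), and functions were tested on simulated data.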

Additional observations from a re-analysis of the deposited data

How the results depend on the processing

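No paired analysis was possible because both replicates of a line stand behind 1 list. Leaving out a replicate was likewise not possible, and a stricter threshold was not run because regions have no score. Class percentages were the same under both other overlap rules, which identical coordinates ensure. With regions at least as wide as the median of their list, shared regions were 47.5%, SCC13-only regions 7.18% and CAL27-only regions 45.3% of the members. For these percentages, shared regions of 791 to below 862 bp passed the CAL27 median alone and were counted as CAL27-only. Among such wide regions, chromosome 4 held 3.36% of the SCC13 list and 2.43% of the CAL27 list, against 5.10% and 3.57% of all regions. Groups of 3 or more numbered 1 at 5 kb and 13 at 25 kb, against 5. Bins of chromosome 4 past the adjustment numbered 0 for both Fisher's tests under every alternative run. The lowest adjusted p was 0.243 for the split and 0.735 for the shared percentage, both in bins of 10 Mb. Over the genome, 1 bin passed for the split in bins of 2 Mb (0.107%) and 1 in bins shifted by 2.5 Mb (0.179%). For the shared percentage 1 bin passed with neighbours of 1 class counted once (0.176%). The other alternatives gave 0% over the genome, so the 0 on chromosome 4 is not particular to it. With wide regions kept, 4 bins of chromosome 4 could be tested for the split.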
